A study of Mus musculus with 12 samples.

Results

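The libraries described are 5 libraries of poly(A) RNA from the optic nerve of mice that model neurofibromatosis type 1 (NF1) and had been given phosphate-buffered saline (PBS), which the study uses as its PBS group. They are PBS 2 to 6 of the 6 PBS libraries and 5 of the 12 libraries of the series, and they were taken by their column names in the deposited count table. PBS 1 was left out because 8.59% of its counts lay in 22 skeletal muscle genes, against 0.0083 to 0.0642% in the others. The study also held 3 libraries after carboplatin, a platinum drug that cross-links DNA, and 3 after selumetinib, an inhibitor of MEK kinases. None of these entered the values below. The labels give the tissue as optic nerve and the cells as nerve cells. Genotype, strain, age, sex and injection schedule are not given in the sources used here, and the labels do not say whether each library came from a separate animal. The spread between libraries may therefore be technical in part. The design holds no contrast within PBS, so the values are a description with no test: levels, their rank and their spread over 5 libraries.

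The optic nerve is a white matter tract. It carries the axons of retinal ganglion cells, whose cell bodies and most of whose messenger RNA lie in the retina, so that the RNA of the nerve comes mainly from its resident cells. Oligodendrocytes wrap the axons in myelin behind the eye, astrocytes fill the nerve head and contact vessels and nodes of Ranvier, microglia are the resident immune cells, and leptomeninges enclose the tract. Loss of neurofibromin, the RAS inhibitor encoded by Nf1, in glial precursors gives rise to optic glioma in people and mice.

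PBS 2 to 6 held 22558698 to 29779508 counts. At this depth 3 counts correspond to 0.101 to 0.133 counts per 1000000 (CPM), which is the level below which a gene with 0 counts could lie. For the 171 library shares of at least 0.05% quoted here or summarised, the 95% Wilson interval reached at most 1.77% of the share to either side. Some libraries differed by less than that: the intervals of PBS 4, 5 and 6 overlapped for the RAS pathway genes. Smaller shares had wider intervals, such as 16.7% of the share to either side for the immunoglobulin genes in PBS 2. These intervals cover counting error only. PBS 4 and 6 were the closest pair, with 34 of 10786 genes more than 2-fold apart, and PBS 2 and 3 had the most such genes among the 5, 405. By the correlation of log2(CPM + 0.5) across these genes PBS 3 and 6 were the least alike (r = 0.922, against 0.936 for PBS 2 and 3), and by the median difference PBS 2 and 5 (0.209 on the log2 scale, against 0.169). PBS 1 was at least 2-fold apart from each of the others in 3882 to 4300 of these genes. Over the same 10786 genes PBS 2 and 3 were the 2 lowest libraries in 22% and the 2 highest in 17.2%, more often than any other pair. Later statements that PBS 2 and 3 stood apart are read against these shares. The labels name no batch.

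Levels within a gene are given as CPM scaled with TMM factors, and 5 values in a row are those of PBS 2, 3, 4, 5 and 6 in that order. Levels between genes are given as a length-scaled share (TPM), which divide the counts by the exonic length of the gene. Means are followed by the SD over the 5 libraries. Since these are bulk samples, fewer cells of a type and less RNA per cell cannot be told apart, and a share of counts is not a share of cells.

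Of 35275 genes listed, 18112 had a count in every library, 5577 in 1 to 4 of them and 11586 in none. Among the 21397 protein-coding genes, 15281 were counted in every library. Transcript abundance was steeply graded. The 69 genes at 1000 CPM or more held 22.6% of the counts, the 1949 genes between 100 and 1000 CPM held 42.3%, and the 8768 between 10 and 100 CPM held 32.8%. The first 50% of counts lay in 901 genes, and the first 90% in 6647. The most abundant gene took 2.99% of the counts, the first 10 took 11.9% and the first 100 took 25.2%.

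The most abundant gene by reads was Mbp, myelin basic protein, at 31976, 30696, 25402, 30905 and 30634 CPM. PBS 4 was the low library, and the other 4 lay close together. Mobp, another myelin protein, averaged 9516 ± 817 CPM. Per length the order differed: mt-Co1, a mitochondrial subunit of cytochrome oxidase, stood first at 30326 ± 4788 TPM. Ptgds, the prostaglandin D synthase secreted by leptomeningeal cells and oligodendrocytes, ranked 3 at 18268 ± 1572 TPM, above Mbp at 12363 ± 883 TPM. Further down were Fth1, the ferritin heavy chain that stores iron, at 10241 ± 1305 TPM, Apoe, the lipid carrier made by astrocytes, at 7134 ± 1379 TPM, and Gfap, the astrocyte filament, at 6570 ± 1369 TPM. Gm42418 reached 13495 ± 2525 TPM. It is annotated as a long noncoding RNA and carried the name Rn18s-rs5, a ribosomal RNA sequence, in RefSeq, so its level need not be that of a polyadenylated transcript.

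**Figure D1:**
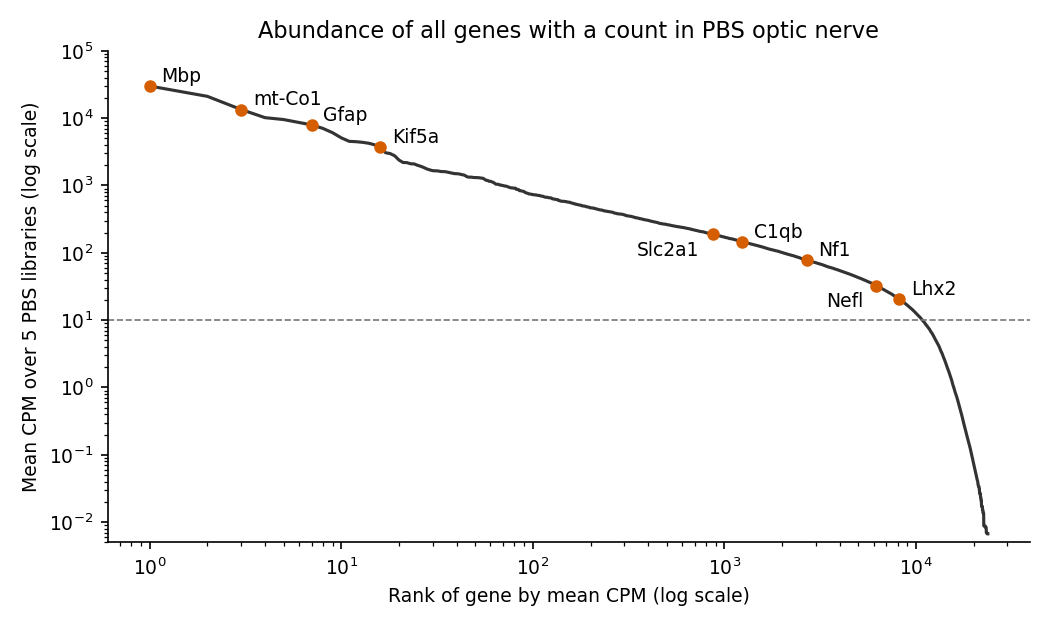
Mean CPM over the 5 PBS libraries (vertical axis, log scale) of every gene with a count against its rank (horizontal axis, log scale), with 9 genes marked and a dashed line at 10 CPM. Mbp stood at rank 1, Gfap at 7, Kif5a at 16, Nf1 at 2691 and the neurofilament gene Nefl at 6207.

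The genes encoded by the mitochondrial genome fell into separate ranges of level. mt-Co1, mt-Cytb, mt-Nd5, mt-Nd1, mt-Nd4, mt-Nd2 and mt-Nd6, subunits of the respiratory chain, averaged 13413, 6069, 4217, 3989, 3063, 2754 and 1307 CPM. mt-Co3 and mt-Co2, subunits of cytochrome oxidase like mt-Co1, and mt-Atp6, a subunit of ATP synthase, averaged 13.3, 12.4 and 12.4 CPM. They come from the same long transcript as the genes above except mt-Nd6, which lies on the other strand. mt-Nd3, mt-Nd4l and mt-Atp8 were at 2.37, 1.56 and 0.363 CPM. The nuclear genome holds copies of mitochondrial DNA, and a read that matches both places equally is often not counted. The gene sequences were aligned to the other annotated transcripts. This found a copy on chromosome 1 that was identical to mt-Co3 over 783 bases, to mt-Co2 over 681 bases and to mt-Atp6 over 678 bases. Gm28437, Gm28661 and Gm10925 are the annotated copies. For mt-Nd3 the copy Gm28438 was 99.7% identical and for mt-Nd4l Gm10222 was 100% identical. The best copy of mt-Co1 was 97.6% identical and that of mt-Cytb 92.9%, and none was found for mt-Nd1. The pairing was not complete: mt-Nd4 has an identical copy over 63.6% of its length and was counted at 3063 CPM. For mt-Atp8, which was near 0, no copy was found among annotated transcripts. A copy that is not annotated as a transcript could not be found in this way. The rule for multiply matching reads is not given in the sources used here, and its part in these levels was not tested. The counted mitochondrial genes took 4.36, 3.23, 2.85, 3.08 and 3.9% of the libraries.

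Myelin and oligodendrocyte genes led the nerve. The 34 genes of the mature oligodendrocyte and myelin list took 7.64, 8.80, 7.95, 8.95 and 8.66% of the counts (8.40 ± 0.571%), and their median level was 641 TPM. PBS 2 and 4 were low and PBS 3, 5 and 6 high. Ndrg1, a cytoplasmic protein of oligodendrocytes and Schwann cells, was the steadiest of the list at 1186, 1460, 1329, 1441 and 1381 CPM. Klk6, a protease of mature oligodendrocytes, was the most variable at 174, 300.3, 294, 426 and 229 CPM.

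Genes of oligodendrocytes that are just forming, and of their precursors, were lower. The 15 newly formed oligodendrocyte genes had a median of 55.5 TPM and took 0.310 ± 0.0181% of the counts, and the 15 precursor genes a median of 29.6 TPM and 0.159 ± 0.00758%. Bcas1, a marker of myelinating cells in their early stage, was counted at 1605, 1673, 1393, 1551 and 1774 CPM. Its span overlaps 2 antisense genes, Bcas1os1 and Bcas1os2, of 154 and 132 CPM, and the strand setting of the counting is not stated in those sources. Gpr17, a receptor of the committed precursor, was at 100.4, 103, 147, 170.1 and 144 CPM. It was lowest in PBS 2 and 3, which did not overlap with the other 3 libraries, as in 22% of all 10786 genes of at least 10 CPM. Olig1, a transcription factor of the whole lineage, was at 499, 592, 439, 495 and 466 CPM. Pdgfra, the growth factor receptor that defines precursors, was at 179, 155, 169, 192 and 168 CPM, highest in PBS 5 and lowest in PBS 3.

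The astrocyte list, 25 genes, took 2.46, 2.27, 2.06, 2.06 and 1.96% of the counts, and its median level was 240 TPM. Gfap was at 9803, 9656, 6814, 7320 and 6009 CPM. PBS 2 and 3 lay above the other 3 libraries without overlap, as in 17.2% of all 10786 genes of at least 10 CPM. Aqp4, the water channel of astrocyte end-feet, was at 601, 562, 675, 655 and 682 CPM, and here PBS 2 and 3 were the lowest. Slc1a2 and Slc1a3 are the glutamate transporters of astrocytes. Slc1a3 was steady at 779, 658, 762, 755 and 708 CPM, while Slc1a2 was at 911, 432, 740, 663 and 994 CPM. Slc1a2 was lowest in PBS 3 and highest in PBS 6.

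Of the 18 genes linked to reactive astrocytes, 13 reached a mean of 10 CPM. Serpina3n, a secreted protease inhibitor, was at 146, 245, 318, 386 and 165 CPM. Vim, an intermediate filament shared with vessels and meninges, was at 1492, 2064, 1655, 1927 and 1140 CPM. Both were low in PBS 2 and 6 and higher in PBS 3, 4 and 5. Emp1, a membrane protein that surface epithelia also express, was the most variable of the list at 84.2, 345, 52.4, 68.5 and 48.6 CPM, with PBS 3 far above the others.

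Regional identity genes of the embryonic optic stalk and forebrain were detected: all 12 of the list had a count in every library, and 8 reached 10 CPM. Nkx6-2, a transcription factor of myelinating glia, led at 118, 150, 111, 132 and 113 CPM. Lhx2, a forebrain and eye transcription factor, was at 19.4, 21.9, 20.5, 20.8 and 20.8 CPM. The spread of Lhx2 hardly exceeded that of counting, at a coefficient of variation (CV) beyond counting of 0.401%. Six6, which marks the retina, pituitary and hypothalamus, was the least steady of the list at 25.4, 14.9, 13.2, 13 and 8.50 CPM. Pax2, a marker of optic stalk astrocytes, averaged 8.59 ± 2.11 CPM.

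**Figure D2:**
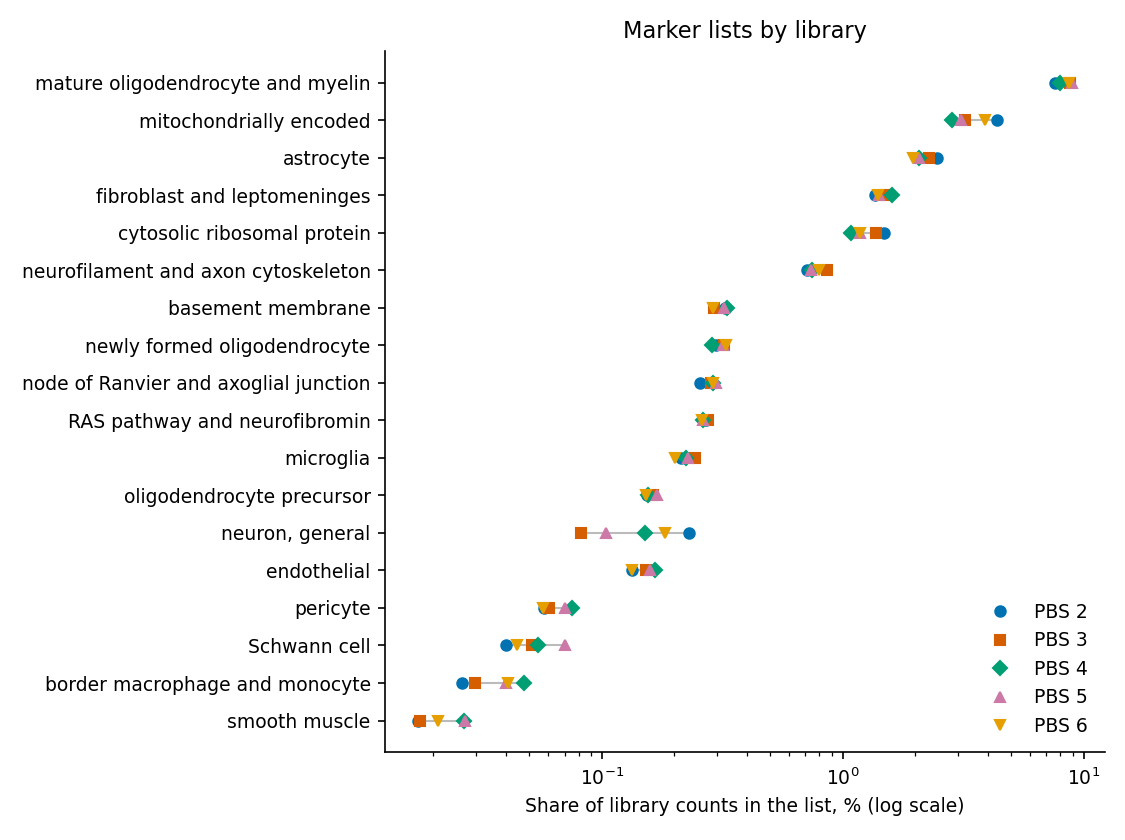
Share of library counts (horizontal axis, %, log scale) in 18 marker lists (vertical axis), with 1 symbol per library and a line from the lowest to the highest. The mature oligodendrocyte list lay between 7.64 and 8.95%, and the general neuron list spread from 0.0823 to 0.230%.

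Microglial genes were present at a similar level in every library. The 22 genes took 0.212, 0.244, 0.223, 0.228 and 0.202% of the counts, with a median of 79.3 TPM, and 21 reached 10 CPM. C1qb, a chain of the complement component that starts the classical pathway, was at 138, 145, 150, 153 and 139 CPM. Cx3cr1, the fractalkine receptor, was at 141, 142, 133, 154 and 142 CPM. C1qb was the steadiest of the list and Fcrls the least steady, with a CV beyond counting of 4.04 and 34.1%. The median CV of the list was 10.2%, close to the 10.4% over all genes of at least 10 CPM.

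Border macrophages and monocytes sit in meninges and around vessels. Their 15 genes took 0.0263, 0.0298, 0.0473, 0.0400 and 0.0409% of the counts, and PBS 2 and 3 were lowest with no overlap. Lyz2, lysozyme of macrophages and neutrophils, was at 131, 133, 253, 228 and 215 CPM. F13a1, a clotting factor subunit of these macrophages, was at 13.4, 10.5, 35.0, 22.1 and 28.3 CPM. In both genes PBS 2 and 3 were the lowest libraries, as in 22% of all 10786 genes of at least 10 CPM. Mrc1, the mannose receptor, was at 23.3, 19.1, 31.5, 24.8 and 25.3 CPM, with PBS 2 close to PBS 5. Cbr2 went the other way, at 6.22, 40.0, 8.90, 7.57 and 10.4 CPM, highest in PBS 3. PBS 3 also had the highest level of surface epithelial genes, as described below, and their part in the Cbr2 value was not tested.

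Cd74, the invariant chain of MHC class II, was at 136, 149, 206, 138 and 179 CPM, and B2m, the light chain of MHC class I, averaged 324 ± 44.3 CPM. C4b, the complement component made by astrocytes and oligodendrocytes, was at 784, 1395, 1095, 1630 and 859 CPM. Irf7, a transcription factor induced by interferon, was at 19.0, 44.9, 9.73, 12.9 and 8.32 CPM. It was highest in PBS 3 and more variable than any other of the 15 interferon genes that reached 10 CPM. Ifit3, the most abundant gene of that list, was at 113, 133, 93.2, 134 and 80.2 CPM, with PBS 3 and 5 equally high.

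RNA of lymphocytes and neutrophils was scarce. The 16 lymphocyte genes took 0.00391 ± 0.00059% of the counts, and only Ighm, the immunoglobulin heavy chain of B cells, reached 10 CPM, at 22.5 ± 1.5 CPM. Cd3e, a chain of the T cell receptor complex, was at 0.793, 0.738, 1.00, 0.258 and 1.81 CPM. S100a9, an abundant neutrophil protein, was at 1.5, 3.45, 17.5, 25.3 and 16.1 CPM. Igha, the heavy chain of secreted mucosal antibody, was at 2.56, 5.30, 47.3, 26.3 and 32.5 CPM, and Igkc, the kappa light chain, at 1.76, 1.68, 23.5, 14.2 and 20 CPM. The 8 immunoglobulin genes, listed after the values were seen, took 0.000612, 0.000907, 0.00883, 0.0049 and 0.00635% of the counts. For S100a9, Igha and Igkc, PBS 4, 5 and 6 lay above PBS 2 and 3 with no overlap, a split seen in 22% of all 10786 genes of at least 10 CPM. Ltf, lactoferrin, which neutrophils and glands both make, had the reverse order at 18.5, 52.1, 8.98, 14.1 and 7.94 CPM.

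Red blood cell transcripts differed widely between libraries. Hbb-bs, an adult beta globin, was at 298, 123, 2504, 1199 and 4082 CPM, and Alas2, the first enzyme of haem synthesis in red cells, at 19.5, 5.97, 122, 50.6 and 179.8 CPM. Both had the same order of libraries, PBS 3 lowest and PBS 6 highest. The 8 genes took 0.0388 to 0.839% of the counts. The globin genes have near-identical copies, so their split between copies is uncertain. Through Hbb-bs a blood gene stood at rank 13 of all genes per length, at 7493 TPM with an SD of 7479 TPM, so that rank rests on PBS 4, 5 and 6.

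Vessel genes took a small share of the counts. The 21 endothelial genes took 0.133, 0.152, 0.166, 0.158 and 0.134% of the counts. Slc2a1, the glucose transporter of the blood-brain barrier, was at 176, 195, 203, 198 and 164 CPM. Slc16a1, a lactate transporter of endothelium that oligodendrocytes also express, was the most abundant of the list at 331 ± 52.7 CPM. Ly6a was the exception at 26.6, 89.5, 21.1, 17.9 and 18.9 CPM, again highest in PBS 3. Vtn, vitronectin of pericytes, was at 335, 387, 435, 425 and 316 CPM. Tagln, a contractile protein of smooth muscle, was at 56.3, 57.3, 109, 119.5 and 75.6 CPM, and Col4a1, a chain of vessel basement membrane, at 53.3, 45, 97.0, 106 and 72.4 CPM. Tagln and Col4a1 were both lowest in PBS 2 and 3, as were 22% of all 10786 genes of at least 10 CPM.

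Leptomeningeal and fibroblast genes took 1.46 ± 0.0961% of the counts over 24 genes, most of it from Ptgds. Ptgds was at 8949, 9655, 8601, 7844 and 7952 CPM. Igf2, a growth factor of the meninges, was at 1154, 1436, 1892, 1438 and 1375 CPM, and Fn1, fibronectin, averaged 969.5 ± 154 CPM. Mgp, an inhibitor of calcification in vessel walls and meninges, was at 157, 209, 304, 194 and 348 CPM. Igf2 was highest in PBS 4 and Mgp in PBS 6.

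Schwann cells myelinate peripheral nerves and are not part of the optic nerve proper. Prx, periaxin of their myelin, was at 2.69, 2.92, 8.31, 23.6 and 3.9 CPM. It was highest in PBS 5 and second in PBS 4. Pmp22, which other cells of the nerve also express, was at 177, 258, 254, 306 and 238 CPM.

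Genes named for axons and for neuronal cell bodies behaved in separate ways. The labels' term for the cells covers the whole tissue: the general neuron list took 0.150 ± 0.0596% of the counts and the mature oligodendrocyte list 8.40%, each share resting on the genes listed. The 17 genes of neurofilaments and the axon cytoskeleton took 0.710, 0.864, 0.742, 0.740 and 0.796% of the counts, and the largest part of it was Kif5a, a kinesin heavy chain. Kif5a was at 3368, 4768, 3387, 3255 and 4001 CPM (1880 ± 306 TPM) and ranked 42 of all genes per length. Tubb4a, a beta tubulin that oligodendrocytes also make, was at 2051 ± 271 TPM, and Mapt, the microtubule protein tau, at 250.1 ± 18.7 TPM. The neurofilament genes themselves were far lower, Nefl at 33.5 ± 7.46 TPM, Nefm at 9.52 ± 1.32 TPM and Nefh at 15.3 ± 13.5 TPM. Nefl, the light chain, was at 32.9, 24.1, 28.3, 32.2 and 44.5 CPM. Nefh, the heavy chain, was at 11.7, 45.2, 9.57, 10.3 and 10.5 CPM, with PBS 3 apart from the rest. The spans of Nefl and Nefm overlap on opposite strands.

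The general neuron list spread more. Its 23 genes took 0.230, 0.0823, 0.151, 0.104 and 0.183% of the counts, and 16 of the 18 members of at least 10 CPM had PBS 3 and 5 as the 2 lowest libraries, beside 13.3% of all 10786 genes of that level. Map2, the dendritic microtubule protein, was at 402, 104, 254, 158 and 288 CPM. Snap25, of the synaptic release machinery, was at 129, 22.3, 78.9, 52.3 and 86.7 CPM. Gad1, which makes the transmitter GABA, was at 116, 3.55, 56.8, 17.7 and 33.1 CPM. For these 3 genes PBS 2 was highest and PBS 3 lowest. Camk2a, a kinase of forebrain synapses, was instead highest in PBS 6, at 96.5, 7.98, 40.9, 38.8 and 377 CPM. Elavl3, an RNA-binding protein, was the steadiest of the list at 209, 261, 237, 253 and 250 CPM.

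Genes of the node of Ranvier and its flanking junctions took 0.284 ± 0.0165% of the counts over 20 genes. Cntn2, contactin of the juxtaparanode, was at 458, 707, 682, 748 and 710 CPM, with PBS 2 below the rest. Ank3, the ankyrin that anchors sodium channels, was at 162, 148, 155, 160.0 and 157 CPM. Of the 11 retinal ganglion cell genes 3 reached 10 CPM. Thy1, one of these, was at 47.6, 26.7, 37.3, 29.8 and 44.4 CPM. Slc6a17, a vesicular amino acid transporter, was at 173, 50.8, 89.6, 42.1 and 64.3 CPM.

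Nf1 (chr11:79339693-79581612, plus strand, GRCm38) was at 75.9, 68.2, 79.3, 81.9 and 82.1 CPM, with a mean of 77.5 ± 5.75 CPM or 17.1 ± 1.40 TPM. It ranked 2691 by reads, and PBS 3 was its lowest library. Omg and Evi2a lie within the span of Nf1 on the opposite strand, at 115 and 120 CPM. As the labels give no genotype, these values do not show which allele the reads came from. The 23 genes of the RAS pathway and its regulators were even between libraries, at 0.270, 0.276, 0.263, 0.263 and 0.261% of the counts. Ptpn11, the phosphatase that activates RAS signalling, was at 457, 481, 390.1, 436 and 443 CPM. Mapk3, the ERK1 kinase, was at 292, 352, 274, 315 and 293 CPM.

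Output genes of ERK signalling were lower. The 16 genes took 0.0655 ± 0.00491% of the counts. Ccnd1, cyclin D1, was at 251, 292, 196, 270.0 and 195 CPM, and the receptor Epha4 at 35.9, 36.3, 37.0, 37.6 and 37.5 CPM. Among 9 genes tied to signalling between neurons, microglia and optic glioma, Ptn, a growth factor, was at 322, 484, 486, 560 and 464 CPM, and Mdk, the related midkine, at 43.6, 37.4, 40.4, 39.1 and 37.2 CPM. The library with the lowest Ptn had the highest Mdk.

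Lipid synthesis, which supplies myelin, was led by Scd2 and Hmgcs1. Scd2, a fatty acid desaturase of myelinating cells, was at 4437, 4940, 5312, 5527 and 5226 CPM. Hmgcs1, of cholesterol synthesis, was at 933, 1089, 894, 940.4 and 784 CPM. The 19 fatty acid and sphingolipid genes took 0.974 ± 0.0475% of the counts, and the 25 cholesterol genes 0.329 ± 0.0288%. No member of either list that reached 10 CPM had a CV of 50% or more. Over all genes of that level only 2.34% did, so this is near the background. Proliferation genes were at the other end. Of 24 cell cycle genes 5 reached 10 CPM. Pcna, the clamp of replication and repair, was at 70.5 ± 6.73 CPM, whereas Mki67 and Top2a, which dividing cells make, were at 5.08 ± 1.67 and 4.82 ± 1.02 CPM.

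Steadiness was measured as the CV between libraries after the variance of counting was taken out, for the 10786 genes with a mean of at least 10 CPM. A gene was called steady at a CV of at most 10% and variable at 50% or more. By this measure 5118 genes (47.5%) were steady and 252 (2.34%) variable, with a median CV of 10.4%. Of the 69 genes at 1000 CPM or more, 23 were steady. The shares of steady genes in the lists are read against 47.5%. Nuclear genes of oxidative phosphorylation were steady in 24 of 33 cases, RAS pathway genes in 17 of 23 and common reference genes in 11 of 17. Mature oligodendrocyte genes were steady in 4 of 34 cases, astrocyte genes in 5 of 25 and ER chaperones in 1 of 14, and microglial genes in 10 of the 21 that reached 10 CPM, close to the share over all genes.

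Among protein-coding genes the steadiest by measured CV were Reep5, Ypel3, Slirp, Adcy6 and Lrrc59. Reep5, which shapes the endoplasmic reticulum, was at 354, 359, 360, 360 and 357 CPM, and Ypel3 at 69.2, 68.8, 69.1, 69.4 and 70.9 CPM. Slirp, which stabilises mitochondrial transcripts, was at 48.6, 48.2, 49.7, 48.3 and 48.3 CPM. These spreads are no wider than counting alone gives. The usual reference genes varied more than these, which were picked as the steadiest. Their median CV was 7.58%, against 10.4% over all genes of at least 10 CPM. Gapdh, of glycolysis, was the steadiest of them with a CV of 2.50%, at 941, 919, 887, 889 and 925 CPM. Actb, cytoplasmic actin, was at 1062, 1336, 1159, 1232 and 1146 CPM, and Hprt, of purine salvage, at 51.8, 30.8, 45.2, 31.5 and 43.2 CPM. Hprt was the least steady of the 17 reference genes, with PBS 3 and 5 low.

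**Figure D3:**
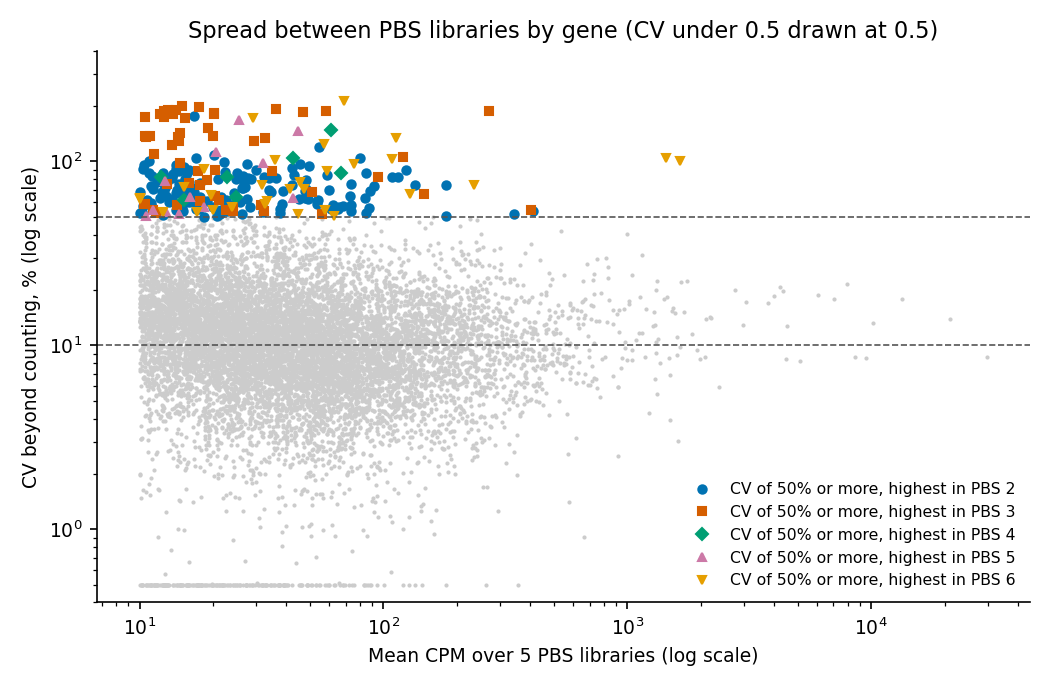
CV between the 5 PBS libraries beyond counting (vertical axis, %, log scale) against mean CPM (horizontal axis, log scale) for 10786 genes. Grey dots are genes under 50%, and coloured symbols are the 252 variable genes by the library in which each was highest, 148 of them in PBS 2. The share of all genes that was highest in PBS 2 is not given.

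The variable genes were not spread evenly over libraries. PBS 2 was the highest library for 148 of the 252 (58.7%) and PBS 3 for 55, while PBS 4, 5 and 6 were highest for 7, 12 and 30. PBS 3 was the lowest library for 159. The share of all genes that was highest or lowest in each single library is not given beside these counts. They therefore do not show a trait of the variable genes. As a pair, PBS 2 and 3 were the highest libraries for 17.2% of all 10786 genes and the lowest for 22%, in both cases more often than any other pair. Of the 252 genes, 170 belonged to no list. The lists that held most were ocular surface epithelium (12 of its 13 genes of at least 10 CPM), skeletal muscle (10 of 12), general neuron (10 of 18), neuropeptide and secretory neuron (10 of 15), red blood cell (5 of 6) and hypothalamic and pituitary (5 of 5). The 2.34% over all genes is the background for these counts. The surface epithelium and neuropeptide lists were written after the values were seen, so their counts describe how they were chosen.

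Surface epithelial genes were among the most variable and were highest in PBS 3. Asprv1, a protease of keratinised epithelium, was at 37.8, 252, 0, 0.86 and 0.766 CPM, and Krt13, a keratin of moist epithelia, at 15.4, 85.5, 0, 0.43 and 0 CPM. Muc4, a membrane mucin of the eye surface, was at 20.3, 160.4, 0.251, 0.129 and 0.104 CPM. Gsto1, a glutathione transferase with a base level in all 5 libraries, was at 130.5, 1168, 15.3, 19.4 and 16.0 CPM. In each of these 4 genes PBS 3 was highest, PBS 2 second, and the other 3 were far lower. Cryaa, the lens crystallin, was at 1.72, 29.6, 0.376, 0.086 and 0.104 CPM. Of the 15 protein-coding genes with the largest CV, 13 were highest in PBS 3, beside 55 of all 252 variable genes.

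Retinal RNA was highest in PBS 2. Rgr, an opsin of the pigment epithelium, was at 29.7, 1.48, 0, 0.043 and 0 CPM. Skeletal muscle RNA was seen in both PBS 2 and 3: Atp2a1, the calcium pump of fast muscle, was at 61.4, 96.6, 1.96, 1.46 and 2.09 CPM, and Acta1, skeletal actin, at 41.2, 57.9, 0.167, 0.516 and 0.418 CPM. In PBS 1 these 2 genes reached 16115 and 7655 CPM. The whole surface epithelium list took 0.0215, 0.132, 0.00229, 0.00245 and 0.00308% of the counts, the muscle list 0.0489, 0.0642, 0.0106, 0.0083 and 0.0107%, and the photoreceptor list 0.0203, 0.00715, 0.0031, 0.00292 and 0.00302%. PBS 2 and 3 were the 2 highest libraries for all 3 lists.

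Hypothalamic and pituitary RNA followed another order. Avp, vasopressin, was at 292, 90.3, 316, 23.4 and 456 CPM, and Oxt, oxytocin, at 92.3, 5.80, 151, 23.5 and 61.5 CPM. Vip, a peptide of the suprachiasmatic nucleus among other places, was at 89.1, 2.15, 93.3, 11.1 and 17.7 CPM. All 3 were lowest in PBS 3 or 5. Gh, growth hormone of the anterior pituitary, was at 0, 1.14, 11.0, 0.43 and 332 CPM, and Prl, prolactin, at 0, 0.168, 0.501, 0.344 and 33.8 CPM. Both were high in PBS 6 alone. The list of 18 took 0.0544, 0.0122, 0.0622, 0.00828 and 0.0955% of the counts. The 18 neuropeptide and secretory neuron genes took 0.358, 0.172, 0.227, 0.158 and 0.223%. Vgf, a secreted neuronal peptide precursor, had the same order of libraries as Gad1, at 168, 4.06, 47.1, 15.8 and 37.3 CPM.

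**Figure D4:**
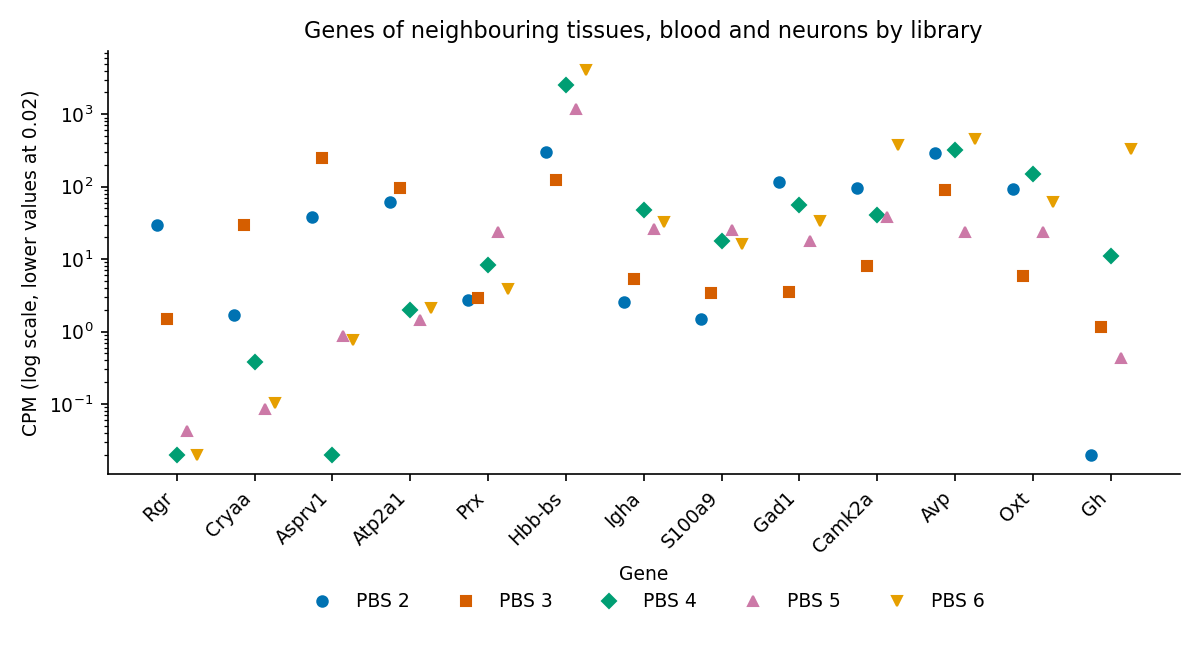
CPM (vertical axis, log scale, values under 0.02 drawn at 0.02) of 13 genes of neighbouring tissues, blood and neurons (horizontal axis), with 1 symbol per library. Rgr was highest in PBS 2, Asprv1 in PBS 3, Prx in PBS 5, and Hbb-bs and Gh in PBS 6.

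Genes of other tissues of the orbit were low or had 0 counts. Lim2 of the lens, Ibsp of bone, Lep and Ucp1 of fat, and 7 of 10 exocrine gland genes had 0 counts in all 5 libraries. Other genes of these lists were counted. The most abundant averaged 19.0 CPM for fat (Plin4, a lipid droplet protein), 17.8 CPM for gland (Amy1, an amylase) and 9.42 CPM for bone and cartilage (Sp7, a transcription factor of osteoblasts). Muc5ac, a secreted mucin, was at 3.00 and 16.7 CPM in PBS 2 and 3 and at 0 in the other 3. With 0 counts a gene could still lie below 0.101 to 0.133 CPM in a library.

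Some variable genes share reads or positions with others. Ube2c, a cell cycle gene, was at 23.1, 27.4, 2.55, 2.06 and 2.51 CPM. It overlaps Tnnc2, a fast muscle troponin on the opposite strand, which was at 23.0, 29.5, 0, 0.172 and 0 CPM. In PBS 1 they reached 3436 and 3691 CPM. Ube2c was the only variable gene of the 5 cell cycle genes that reached 10 CPM, and reads of the 2 genes cannot be told apart if strand was not used.

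Rps2, a protein of the small ribosomal subunit, was at 504, 490.4, 82.3, 385 and 248 CPM, and its processed copy Rps2-ps13 on chromosome X at 0.176, 0.201, 204, 0.387 and 100.5 CPM. The copy is 99.2% identical over 882 bases. Where the copy was high, in PBS 4 and 6, the gene was low, and the CV fell from 52.0% for the gene alone to 23.2% for the sum of both. Rps3a1 was at 600.2, 592, 462, 76.3 and 317 CPM, while its copies Rps3a3 and Rps3a2 were at 147 and 55.8 CPM in PBS 5 and at 74.4 and 33 CPM in PBS 6, against at most 6.27 CPM in the other 3. Gm8730, a copy of Rplp0, was at 68.9, 73.4, 2.01, 1.59 and 1.81 CPM with no matching fall in Rplp0, which was at 400.5, 419, 404, 433 and 459.8 CPM. Of 22 processed pseudogenes of at least 10 CPM, 8 were variable, 36.4% beside 2.34% of all genes, and 13 were copies of ribosomal protein genes. All 22 aligned to a protein-coding transcript at 95% identity or more, so the counts of these genes and of their parents are uncertain.

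Chaperones of the endoplasmic reticulum (ER) fold secreted and membrane proteins, and cells raise them together when unfolded protein gathers. The 14 genes of the list took 0.223, 0.221, 0.394, 0.367 and 0.338% of the counts. Hspa5, the ER chaperone BiP, was at 295, 292, 732, 719 and 634 CPM, and Hsp90b1 at 364, 343, 609, 549 and 530 CPM. Creld2, a disulfide isomerase, was at 22.1, 24.2, 41.3, 45.2 and 33.9 CPM, and Calr, a calcium-binding chaperone, at 308, 299, 581, 521 and 492 CPM. PBS 2 and 3 were the 2 lowest libraries for 13 of the 14 genes (92.9%). Over all 10786 genes they were the 2 lowest in 22%, more often than any other pair. Canx, calnexin, was the steadiest at 449, 465, 545, 519 and 502 CPM.

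A known motif of these promoters is the ER stress response element, CCAAT and CCACG with 9 bases of any kind between them, which was searched on both strands in the RefSeq windows from 250 bases before to 50 after each start. It was found in 6 of the 12 windows of the list, 1 per gene, Calr, Canx, Creld2, Hsp90b1, Hspa5 and Pdia6, and in 39 of 32851 windows (0.119%) over the genome. The motif is known from such promoters and was added to the search after the values were seen, so an excess here follows from its choice. Its part in the order of libraries was not tested. Canx, the steadiest of the list, has the motif as well. The 250 bases before the start of 3 of these genes are shown with the motif in capitals, 5′ to 3′ on the strand of the gene (GRCm38.p6). PBS 2 and 3 were the lowest libraries in all 3, as in 13 of the 14 genes of the list. Hspa5 is at chr2:34771840-34772089 on the plus strand, Hsp90b1 at chr10:86705445-86705694 on the minus strand and Creld2 at chr15:88819396-88819645 on the plus strand.
Hspa5: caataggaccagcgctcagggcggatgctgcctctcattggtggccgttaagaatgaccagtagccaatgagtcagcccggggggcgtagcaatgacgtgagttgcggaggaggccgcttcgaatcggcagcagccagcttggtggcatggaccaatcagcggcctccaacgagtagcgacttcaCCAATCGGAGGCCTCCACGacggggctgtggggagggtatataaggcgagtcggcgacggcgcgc
Hsp90b1: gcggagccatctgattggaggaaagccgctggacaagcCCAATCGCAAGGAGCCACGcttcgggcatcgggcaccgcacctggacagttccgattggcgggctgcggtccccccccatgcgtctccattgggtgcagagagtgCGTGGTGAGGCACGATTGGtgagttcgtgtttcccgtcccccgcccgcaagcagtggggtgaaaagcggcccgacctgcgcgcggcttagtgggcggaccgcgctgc
Creld2: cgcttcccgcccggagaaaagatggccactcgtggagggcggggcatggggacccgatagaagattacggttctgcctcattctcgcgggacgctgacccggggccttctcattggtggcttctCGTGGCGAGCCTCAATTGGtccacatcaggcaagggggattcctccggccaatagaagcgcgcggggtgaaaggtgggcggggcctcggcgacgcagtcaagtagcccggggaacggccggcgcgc
The match lies 65 to 47 bases before the start in Hspa5, 126 to 108 in Creld2, and 212 to 194 and 107 to 89 in Hsp90b1. A match is a stretch of letters and not a measured binding site.

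Heat shock genes as a set, which includes the mitochondrial Hspd1 and Hspe1, had a similar order. Their 16 genes took 0.332, 0.296, 0.484, 0.440 and 0.425% of the counts, and PBS 2 and 3 were the 2 lowest libraries for 12 of the 16 (75%). Over all 10786 genes of at least 10 CPM they were the 2 lowest in 22%. Hspa8, the constitutive member of the HSP70 family, was at 609, 598, 1104, 919 and 923 CPM. Hspa1b, the stress-induced member, was at 6.17, 5.90, 55.5, 74.7 and 17.8 CPM. Hspa1b has a near-identical neighbour, Hspa1a, and reads may be split between them. The heat shock element is GAA, TTC and GAA in turn with 2 bases of any kind between them, or its reverse complement. It was in 5 of the 18 windows of these genes and in 0.603% of all windows. The windows with a match belong to 4 of 13 genes, Chordc1, Hspd1, Hspe1 and Hsph1. Hspa1b, the most variable of the list, had no match, whereas Hspe1, the steadiest, had it.

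Circadian clock genes went the opposite way. The 16 genes took 0.150, 0.144, 0.0962, 0.0945 and 0.0928% of the counts, and PBS 2 and 3 were the 2 highest libraries for 10 of the 14 that reached 10 CPM (71.4%), beside 17.2% of all genes. Dbp, a transcription factor with strong daily cycles, was at 177, 183, 35.8, 43.2 and 34.4 CPM. Nr1d1, the repressor REV-ERB alpha, was at 257, 266, 137, 161 and 137 CPM, and Per1, of the negative arm, at 87.4, 74.0, 46.5, 35.3 and 37.4 CPM. Ciart, another repressor, was at 11.9, 11.1, 3.30, 1.81 and 2.40 CPM. Arntl, the activator BMAL1 that these repressors oppose, had the reverse order at 17.6, 7.28, 27.7, 26.2 and 29.1 CPM. Dbp overlaps Sphk2, and Nr1d1 overlaps Thra, on opposite strands. The labels do not give the hour of collection.

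Clock activators bind the E-box CACGTG, which reads the same on both strands. It was in 6 of the 19 windows of the clock genes, which belong to 5 of 14 genes (Bhlhe41, Ciart, Cry1, Per1 and Tef), and in 7.15% of all windows. The windows of Per1 and Ciart are shown with the E-box in capitals, Per1 at chr11:69098699-69098948 on the plus strand, 1 of its 2 windows, and Ciart at chr3:95882229-95882478 on the minus strand.
Per1: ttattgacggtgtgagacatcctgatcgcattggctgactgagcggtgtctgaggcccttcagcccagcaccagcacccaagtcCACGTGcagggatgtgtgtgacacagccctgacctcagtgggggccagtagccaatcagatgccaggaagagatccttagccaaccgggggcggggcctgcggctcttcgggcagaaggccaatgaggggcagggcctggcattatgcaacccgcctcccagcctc
Ciart: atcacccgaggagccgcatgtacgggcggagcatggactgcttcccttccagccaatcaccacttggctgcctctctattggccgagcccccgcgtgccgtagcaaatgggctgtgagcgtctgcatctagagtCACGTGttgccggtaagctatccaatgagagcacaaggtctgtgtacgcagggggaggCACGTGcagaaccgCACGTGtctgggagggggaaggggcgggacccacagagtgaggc
Per1 holds 1 match, 166 to 161 bases before the start, and Ciart 3, at 116 to 111, 58 to 53 and 44 to 39 bases. Per1 and Ciart were both highest in PBS 2 and 3. Dbp, which was highest in the same 2 libraries, is not among the clock genes with a match in these windows.

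**Figure D5:**
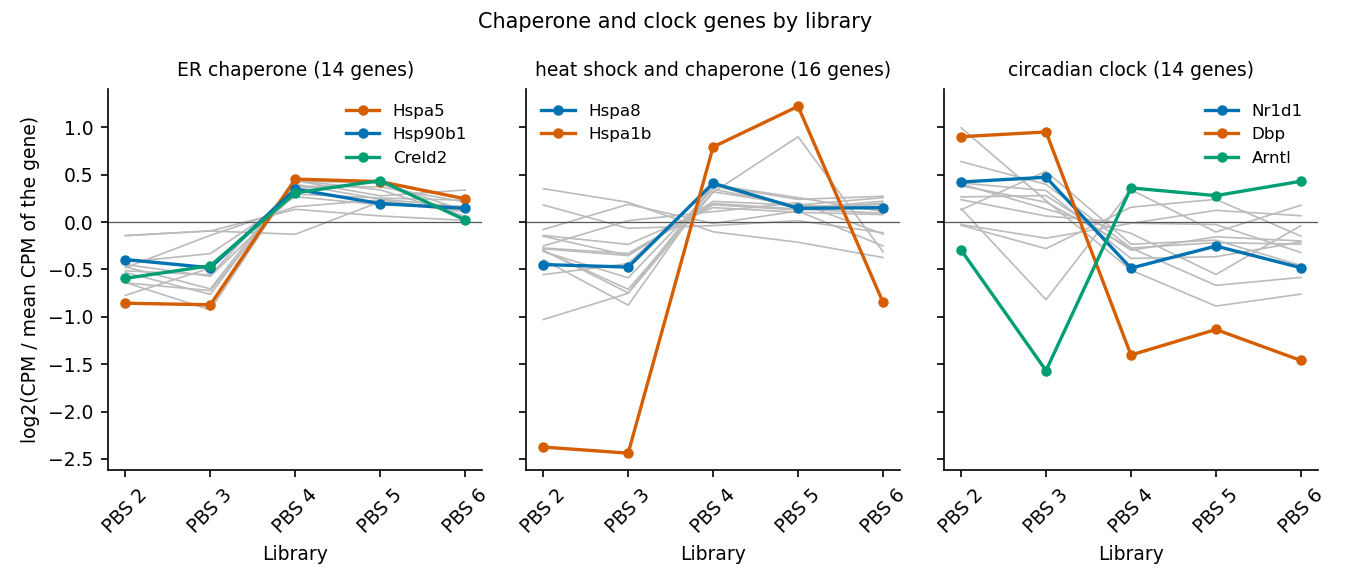
Level of each gene relative to its own mean, as log2 of CPM over mean CPM (vertical axis), by library (horizontal axis) for ER chaperone, heat shock and clock genes of at least 10 CPM. Lines only join the values of 1 gene, since libraries have no order; Hspa5 lay between 292 and 295 CPM in PBS 2 and 3 and between 634 and 732 CPM in the other 3.

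In the same 2 libraries Sgk1, a kinase induced by glucocorticoids, was highest, at 204, 290, 116, 58.0 and 68.2 CPM, and muscle, retinal and surface epithelial genes were highest too, as given above. Their part in the chaperone and clock values was not tested. The mature oligodendrocyte list did not separate them in this way: PBS 2 was the lowest library at 7.64% and PBS 3 the second highest at 8.80%.

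Ddx3y, a Y-linked helicase, was at 77.1, 95.1, 119.9, 113 and 117 CPM, and Xist, the RNA of the inactive X chromosome, at 0.749, 1.44, 0.292, 0.387 and 0.139 CPM. PBS 1 had the reverse pattern, 0 counts of Ddx3y and 309.6 CPM of Xist.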

How the data were processed

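The file that the authors deposited holds raw read counts, with a row for each of 35275 Ensembl genes and a column for each of 12 libraries, and its whole-number columns differ in their totals. RNA came from a column kit and then a poly-T bead selection, per the labels' protocols. The tools named are FastQC, Trimmomatic, STAR, HTSeq and DESeq2, and the build is mm10, per the submitters' processing notes. Tool versions, annotation, strand setting, the rule for multiply matching reads and count filters are not given in the sources used here. Groups came from the treatment label and the library numbers from the titles.

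GENCODE M21 (GRCm38, the assembly of mm10) holds 34490 of the gene IDs and gave symbols, spans, overlaps and exonic lengths. Counts of PBS 2 to 6 were scaled with TMM factors in edgeR 4.0.16 (R 4.3.3) to CPM, and divided by exonic length for TPM. PBS 1 was scaled by its plain total. List shares are shares of the raw counts of a library. The CV beyond counting is the root of the squared CV of scaled counts minus 1 over the mean count, set to 0 where negative. It was tested on simulated data. A gene of at least 10 CPM was called steady at 10% or less and variable at 50% or more. Nuclear copies and pseudogene parents were found with blastn 2.17.0. Tables and plots were made in Python 3.11.15.

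The members and lists were chosen with earlier results of these data known. There were 865 genes in 53 lists, 4 of them unmatched, and 50 genes in 3 more lists (ocular surface epithelium, neuropeptide and secretory neuron, immunoglobulin), 1 unmatched, that were written after the values were seen, as was the ER stress response element. Named genes were the 25 highest by CPM and 15 by TPM, the 15 steadiest and 15 most variable protein-coding genes with no predicted or clone symbol, and of each list the 3 most abundant, the steadiest, the most variable and those with 0 counts, and Nf1. Of these some were left unnamed, and some are not reported here. Ties in the steadiest, where 202 genes had a CV of 0, were broken by measured CV, which was decided after the values were seen. Aqp4, Slc1a2, Gpr17, Pax2, Cx3cr1, F13a1, Cd3e, Alas2, Mgp, Prx, Mapt, Nefl, Nefm, Snap25, Gad1, Vip, Prl, Rgr, Calr, Creld2, Per1, Ciart, Arntl, Mki67, Top2a, Tnnc2, Gm8730, Rps2-ps13, Rps3a1, Rps3a2, Rps3a3, Xist, the overlapping genes, the motif-bearing genes, and the mitochondrial genes and copies set beside the leading ones were named outside this rule, after their values were seen. The alternatives were DESeq2 1.42.0 size factors, plain totals, other filters, the counting part kept in, edgeR tagwise dispersions, values per length, no mitochondrial genes, all 6 PBS libraries, and each library left out.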

Additional observations from a re-analysis of the deposited data

Results flagged for a closer look

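Among 56 lists and 125 genes, 24 values had 1 library apart from the other 4, with a gap to the nearest library above 0.71 of the whole range. Chance alone marks about 1 in 20 groups in this way. That rate does not apply to these 24, since many of the genes were named because they varied most, the ocular surface, neuropeptide and immunoglobulin lists were written after the values were seen, and a list and its genes are not independent.

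PBS 3 was the high library for the lens and cornea list (gap 0.937 of the range), the ocular surface epithelium list (0.851) and the immediate early list (0.805). The same held for the epithelial genes Asprv1 (0.850), Krt13 (0.820), Muc4 (0.874) and Gsto1 (0.900), for the lens gene Cryaa (0.945), and for Emp1 (0.880), Cbr2 (0.876), Ly6a (0.878), Ltf (0.760) and Nefh (0.939). PBS 2 was the high library for the photoreceptor list (0.757), the pigment epithelium list (0.895), Rgr (0.950) and Vgf (0.737), and the low library for Cntn2 (0.774).

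PBS 6 was apart for the pituitary hormones Gh (0.967) and Prl (0.985) and for Camk2a (0.760). PBS 5 was apart for the Schwann cell gene Prx (0.730). In PBS 4 Mbp was low (0.796) and Slirp high (0.764), the latter within a total range of 48.2 to 49.7 CPM.

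Outside the 5 libraries, PBS 1 had 8.59% of its counts in the skeletal muscle list (95% Wilson interval 8.58 to 8.60%, counting error only). In that library Atp2a1 was at 16115 CPM and Myh4, a fast muscle myosin, at 8416 CPM.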

How the results depend on the processing

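With all 6 PBS libraries the mature oligodendrocyte share was 7.45%, the astrocyte share 1.90%, the microglial share 0.198%, the axon cytoskeleton share 0.689% and the mitochondrial share 4.68%. The count of steady genes was then 1714, that of variable genes 1692, and the common biological CV of edgeR 44.2%, against 5118, 252 and 22.5% over the 5. Per exonic length the mature oligodendrocyte share was 5.77%, the microglial share 0.369%, the axon share 0.585% and the mitochondrial share 9.76%. Of the 56 lists, 22 took a share more than 1.5 times higher per length and 3 a share as much lower, among them hypothalamic and pituitary (0.234% per length, 0.0465% of counts), red blood cell (1.47 and 0.346%), border macrophage and monocyte (0.0708 and 0.0368%) and node of Ranvier (0.118 and 0.284%). With edgeR tagwise dispersions, which draw genes toward a common value, 0 genes were steady and 132 variable. Variable genes numbered 2054 with no filter but a count in every library and 1084 from 1 CPM, since more genes were counted. The common biological CV was 34.4% with no filter. DESeq2 size factors and plain totals moved none of 315 named gene means by more than 1 SD.

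Leaving out each library in turn gave 18280 to 18408 genes counted in every library, 887 to 911 genes holding 50% of the counts, 5006 to 6005 steady genes, 173 to 304 variable genes and a common biological CV of 20 to 24.8%. The shares were 8.26 to 8.59% for mature oligodendrocytes, 2.09 to 2.21% for astrocytes, 0.216 to 0.227% for microglia, 0.144 to 0.153% for endothelium, 0.747 to 0.786% for the axon list and 3.26 to 3.64% for mitochondrial genes. A mean over 4 libraries cannot leave 1 SD of the mean over 5, so changes by more than 1.5 times were counted as well. Of 303 named gene means, 33 changed so without PBS 3 and 2 to 6 without another library. Of 56 lists, 4 did: ocular surface epithelium (0.00734% without PBS 3), lens and cornea (0.000866% without PBS 3), photoreceptor (0.00405% without PBS 2) and red blood cell (0.223% without PBS 6).

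No paired analysis was possible because the results come from no test and from 1 group. At this depth a gene with 0 counts in a library could lie below 0.101 to 0.133 CPM, the level of 3 counts.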

Other observations

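Genes of glucocorticoid and fasting responses, 17 in the list, took 0.172, 0.198, 0.164, 0.130 and 0.139% of the counts of PBS 2 to 6. Mt1, a metallothionein that binds zinc and copper, was the most abundant of them at 423, 466, 336, 356 and 305 CPM, with PBS 2 and 3 highest. Klf2, a transcription factor of endothelium and T cells on the immediate early list, was at 32.1, 43.4, 18.1, 13.3 and 14.2 CPM and also highest in these 2 libraries. Jund, the most abundant gene of that list, was at 316, 375, 292, 308 and 253 CPM.

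Genes of the choroid plexus and ependyma, which line the brain ventricles, were present at a low level. Kl, klotho, was at 21.9, 23.4, 47.8, 32.5 and 39.3 CPM, lowest in PBS 2 and 3, and the potassium channel Kcnj13 was even at 21.1, 20.8, 23.4, 17.3 and 20.1 CPM. Rlbp1, a retinoid carrier of pigment epithelium and of Müller glia, was at 33.5, 23.6, 19.3, 18.9 and 24.1 CPM. It had the highest CPM of the pigment epithelium list in every library, whereas Rgr of the same list was seen mainly in PBS 2.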
